A study of Homo sapiens with 17 samples.

Results

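The cyclic AMP phosphodiesterases of the PDE3, PDE4, PDE7 and PDE8 families were followed across 2 human lung adenocarcinoma cell lines with and without active LKB1, the serine/threonine kinase encoded by STK11. The families hold 10 genes: PDE3A, PDE3B, PDE4A, PDE4B, PDE4C, PDE4D, PDE7A, PDE7B, PDE8A and PDE8B. A gene was taken from probe sets that the platform annotation assigns to that gene alone, and 9 of the 10 were measured among 17958 genes in all. PDE4C was not measured, because its probe set carries a second gene symbol. Each of the 9 had 1 such probe set, so no choice between probe sets was needed. A further PDE4D probe set that carries another gene symbol as well was not used.

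A549 and H2122 cells had been stably transduced with 1 of 3 pBABE retroviruses, encoding LKB1 itself (wild type), its kinase-dead K78I mutant, or nothing (the empty vector, called pBABE). All were selected for 2 weeks in puromycin at 1 µg/mL, grown in 5% serum and harvested while dividing, so that viral integration and drug selection are common to all groups. The LKB1 group held 3 arrays in A549 and 3 in H2122. The controls were 3 K78I arrays in each line, and 3 pBABE arrays in A549 and 2 in H2122, which gives 17 arrays from 130 ng of total RNA each. Levels are log2 expression values, so that a difference of 1 is a change of 2-fold. The constructs are expressed from the virus and not from the gene's own promoter. Both lines are known, as background, to lack functional LKB1. The labels do not say whether replicates were separate transductions or cultures, and the p-values reflect array-to-array spread, which may be technical.

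Cyclic AMP is made by adenylyl cyclases and carries signals to protein kinase A and EPAC, and phosphodiesterases end the signal by hydrolysing it. PDE3 enzymes bind both cyclic AMP and cyclic GMP, and cyclic GMP inhibits their hydrolysis of cyclic AMP. PDE4, PDE7 and PDE8 are specific for cyclic AMP. PDE4 is the target of rolipram and of roflumilast, which is used in obstructive lung disease, whereas PDE7 and PDE8 are insensitive to rolipram and bind their substrate with high affinity. LKB1 activates AMPK and its relatives, among them the salt-inducible kinases (SIK), which hold the CRTC coactivators of CREB in the cytoplasm. CREB is the transcription factor through which cyclic AMP induces many genes, and transcription of some phosphodiesterase genes is itself known to respond to cyclic AMP.

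The constructs were first checked through STK11. In H2122 it read 11.20, 11.35 and 11.26 with LKB1, 11.27, 11.31 and 11.26 with K78I, and 6.33 and 6.22 with pBABE. In A549 it read 9.42, 10.23 and 9.62 with LKB1, 10.54, 7.14 and 10.42 with K78I, and 6.88, 7.38 and 10.52 with pBABE, so the arrays labelled K78I replicate 2 and pBABE replicate 3 go against their labels. For 3 H2122 arrays (titled LKB1 replicate 3, K78I replicate 3 and pBABE replicate 2) the title and the source name disagree on the construct, and titles were used. Cell cycle genes (35 measured) were low on 3 control arrays, by 0.81 on A549 K78I replicate 2, 0.37 on A549 pBABE replicate 1 and 1.39 on H2122 pBABE replicate 2, as means against their line. Of the 9 epithelial and lung markers, the keratins KRT7, KRT8 and KRT18 had group means of at least 11.58 in both lines. EPCAM and KRT19 lay at 6.69 to 7.13 and 4.48 to 5.07 in A549, and above 10 in H2122. The epithelial cadherin CDH1 fell in A549, to 9.64 with LKB1 against 10.77 with K78I and 10.86 with pBABE (−1.17, limma adjusted p = 0.011), and the endothelial marker PECAM1 fell in H2122 (−0.79, adjusted p = 0.0116); their part in the results was not tested. The 4 blood and 5 endothelial markers measured had group means of at most 4.52 and 6.11, and the lung lineage markers NKX2-1, NAPSA and SFTPB of at most 5.85.

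Promoter sequences bear on the cyclic AMP response, so 280-base windows (250 bases before to 30 after an annotated transcription start) were searched for the full cyclic AMP response element TGACGTCA and for its core TGACG, on both strands; the core lies within the full element. The search covered 32 RefSeq windows (GRCh38.p14) of 8 of the genes: PDE3A, PDE4A, PDE4B, PDE4C, PDE4D, PDE7B, PDE8A and PDE8B. PDE7A was left out of the search and PDE3B had no window in the set searched, so the counts of windows below cover neither gene. The full element was present in 2 windows, 1 of PDE7B and 1 of PDE4A, against 1.85% of all 35116 windows. The core was present in 4 windows, those 2 and 1 each of PDE4D and PDE4C, against 23.5% of all windows. None of the 6 PDE4B windows held either. The PDE7B and PDE4A windows are shown because they hold the full element, and the PDE4D window because it holds a core in a gene that fell in both lines; capitals mark the elements. The PDE7B window lies at chr6:135851451-135851730 on the plus strand, with the full element starting at position −155 from the transcription start. The PDE4A window lies at chr19:10416523-10416802 on the plus strand, with 7 cores in all and the full element starting at position −3. The PDE4D window lies at chr5:59587596-59587875 on the minus strand.
PDE7B: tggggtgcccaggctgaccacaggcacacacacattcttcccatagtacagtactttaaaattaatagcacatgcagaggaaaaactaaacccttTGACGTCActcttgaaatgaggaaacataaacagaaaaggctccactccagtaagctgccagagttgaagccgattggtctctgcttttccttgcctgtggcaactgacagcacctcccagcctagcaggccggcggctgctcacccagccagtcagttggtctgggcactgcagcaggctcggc
PDE4A: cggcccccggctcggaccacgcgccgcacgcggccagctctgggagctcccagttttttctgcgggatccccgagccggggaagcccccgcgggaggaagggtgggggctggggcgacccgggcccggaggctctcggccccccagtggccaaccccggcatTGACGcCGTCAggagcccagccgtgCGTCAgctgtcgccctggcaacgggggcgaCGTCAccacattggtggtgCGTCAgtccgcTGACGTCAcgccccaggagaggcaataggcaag
PDE4D: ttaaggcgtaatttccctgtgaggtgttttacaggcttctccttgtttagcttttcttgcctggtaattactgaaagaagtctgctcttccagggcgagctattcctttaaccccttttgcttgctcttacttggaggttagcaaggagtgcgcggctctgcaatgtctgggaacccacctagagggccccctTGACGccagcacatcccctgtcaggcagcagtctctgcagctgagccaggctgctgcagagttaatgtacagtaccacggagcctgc
A match describes these letters in this window only and says nothing about binding.

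With wild-type LKB1, most of the measured phosphodiesterases fell. These 9 genes were chosen with earlier results of these data known, so their counts and medians are a description and no independent test. In A549, 6 of the 9 fell against the controls and 1 rose, 7 in all, where limma called 8.44% of all genes at an adjusted p under 0.05 (2.95% lower and 5.49% higher). Over all genes that is 530 lower and 985 higher, and 718 lower and 774 higher once each array is centred on its median. In H2122, 5 fell and 1 rose, 6 in all, where 7.28% of all genes were called (2.29% lower and 4.99% higher). PDE3A, PDE4B, PDE4D and PDE8A fell in both lines. The median difference of the 9 genes was −0.97 in A549 and −0.58 in H2122, against −0.02 and −0.04 over all genes. Here and below a difference is LKB1 minus the mean of the K78I and pBABE group means, and a lower level in bulk RNA cannot tell fewer expressing cells from less RNA per cell. The arrays came without detection calls here. Low levels, such as those of PDE7B, PDE8B and, with LKB1 in H2122, PDE4B, cannot be told from background, and the differences given for them are between measured levels and may understate a change. Every LKB1 array lay below every control array for 6 of the 9 genes in A549 (6.65% of all genes) and for 6 in H2122 (8.82% of all genes). Every LKB1 array lay above every control array for 0 of the 9 in A549 (8.46% of all genes) and for 1, PDE7A, in H2122 (8.54% of all genes).

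**Figure D1:**
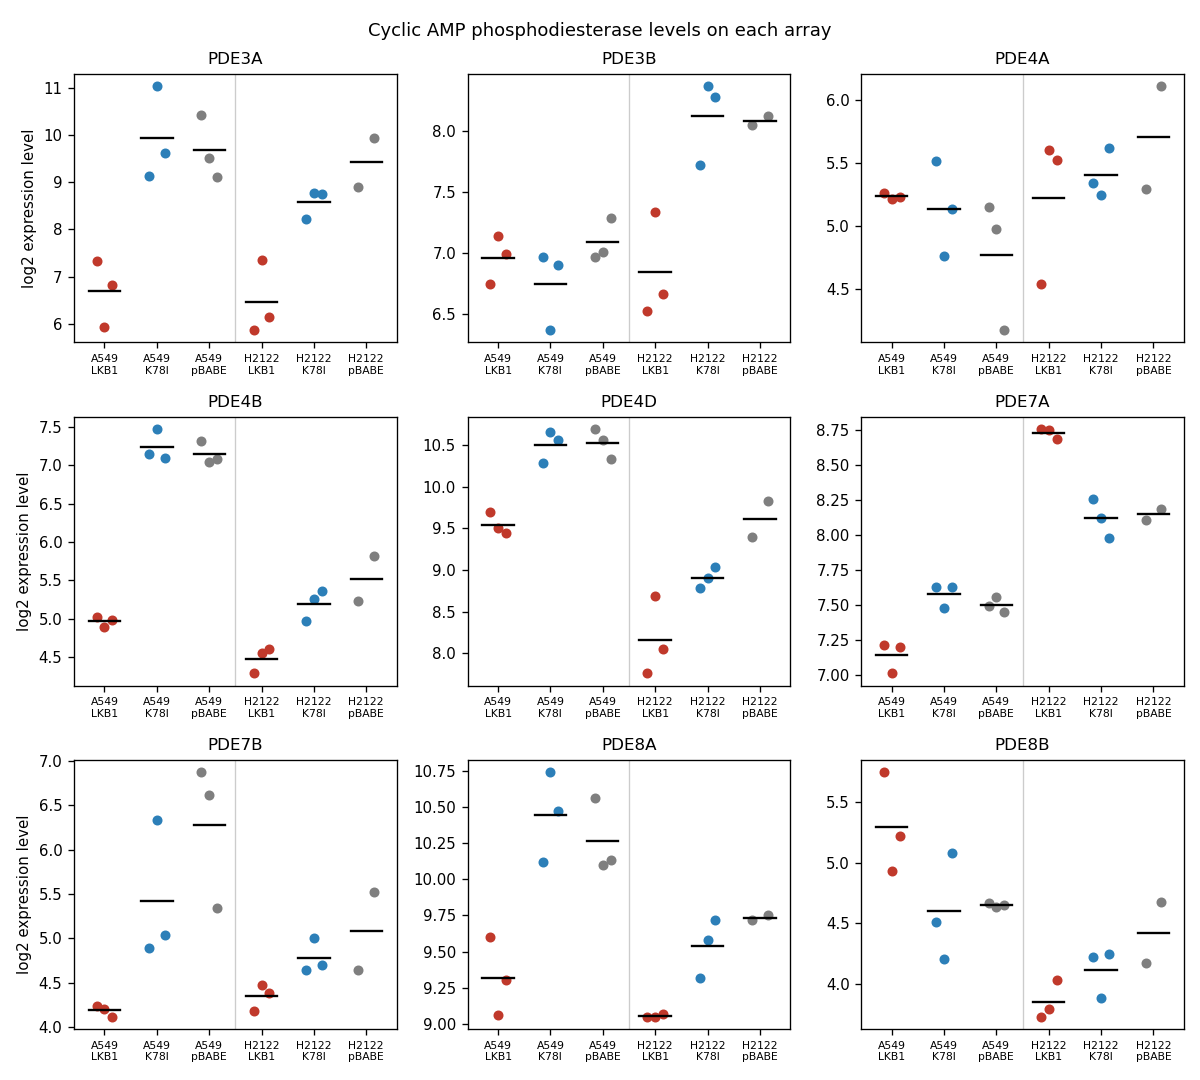
Log2 expression level of each of the 9 measured phosphodiesterase genes on each of the 17 arrays, by line and construct (red LKB1, blue K78I, grey pBABE), with a bar at each group mean (n = 3 arrays, 2 for H2122 pBABE); each panel has its own axis. PDE4B sat at 4.90 to 5.02 on the A549 LKB1 arrays and at 7.04 to 7.47 on the 6 A549 control arrays.

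PDE3A, a cyclic GMP-inhibited phosphodiesterase best known from heart muscle, platelets and oocytes, showed the greatest difference of the 9 in both lines. Its level in A549 was 7.34, 5.93 and 6.82 with LKB1, 9.14, 11.05 and 9.63 with K78I, and 10.43, 9.51 and 9.11 with pBABE. All LKB1 arrays were lower than all controls, by at least the gap between 7.34 and 9.11. The difference was −3.12 ± 0.45 (SE, limma adjusted p = 0.000468), an 8.68-fold lower level. In H2122 PDE3A read 5.86, 7.35 and 6.15 with LKB1, 8.22, 8.78 and 8.75 with K78I, and 8.91 and 9.95 with pBABE. Again the groups did not overlap, and the difference was −2.55 ± 0.47 (SE, limma adjusted p = 0.00322). The LKB1 arrays spread over 1 log2 unit or more in each line, with the highest at 7.34 and 7.35.

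The highest PDE3A value of each line fell on an array with low cell cycle genes, 11.05 on A549 K78I replicate 2 and 9.95 on H2122 pBABE replicate 2. Without the 3 arrays of that kind the PDE3A difference was −2.65 in A549 (limma adjusted p = 0.000551) and −2.29 in H2122 (adjusted p = 0.0023). The part of the cell cycle shift in the values of these arrays was not tested.

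PDE3B, the PDE3 form of fat and liver cells that insulin signalling activates, differed between LKB1 and controls in H2122 and not detectably in A549. H2122 arrays read 6.53, 7.34 and 6.67 with LKB1, 7.72, 8.37 and 8.28 with K78I, and 8.05 and 8.12 with pBABE, so every LKB1 array was lower. The difference there was −1.26 ± 0.20 (SE, limma adjusted p = 0.00115), or 2.39-fold. A549 arrays read 6.75, 7.14 and 6.99 with LKB1, 6.97, 6.37 and 6.90 with K78I, and 6.97, 7.01 and 7.29 with pBABE, and the groups overlapped. The A549 difference was 0.04 (95% interval −0.37 to 0.45, limma adjusted p = 0.939).

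PDE4B, the PDE4 form known for its part in inflammatory signalling in leukocytes, gave the lowest adjusted p of the 9 in A549. Its A549 arrays read 5.02, 4.90 and 4.99 with LKB1, 7.14, 7.47 and 7.09 with K78I, and 7.31, 7.04 and 7.08 with pBABE. The LKB1 arrays lay close together, about 2 log2 units below the lowest control. The difference was −2.22 ± 0.14 (SE, limma adjusted p = 2.79e-07), a 4.66-fold lower level. In H2122 PDE4B read 4.29, 4.55 and 4.61 with LKB1, 4.97, 5.26 and 5.36 with K78I, and 5.23 and 5.82 with pBABE. The LKB1 arrays were again the lowest, with a smaller difference of −0.88 ± 0.15 (SE, limma adjusted p = 0.00154) that began from lower control levels.

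PDE4D, the PDE4 form known from heart and airway smooth muscle, fell in both lines. It read 9.69, 9.50 and 9.44 with LKB1 in A549, 10.28, 10.65 and 10.56 with K78I, and 10.69, 10.56 and 10.33 with pBABE. In H2122 it read 7.76, 8.69 and 8.05 with LKB1, 8.78, 8.90 and 9.03 with K78I, and 9.40 and 9.83 with pBABE. LKB1 arrays were lowest in each line, though the H2122 LKB1 array at 8.69 came close to the K78I array at 8.78. The differences were −0.97 ± 0.17 in A549 (SE, limma adjusted p = 0.00226) and −1.09 ± 0.18 in H2122 (SE, limma adjusted p = 0.00136).

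PDE4A, the PDE4 form whose promoter window above holds the full element at the start site, passed the test in neither line. A549 arrays read 5.26, 5.21 and 5.23 with LKB1, 5.51, 4.76 and 5.13 with K78I, and 5.15, 4.97 and 4.17 with pBABE. H2122 arrays read 4.54, 5.60 and 5.52 with LKB1, 5.34, 5.24 and 5.62 with K78I, and 5.29 and 6.11 with pBABE. Groups overlapped in both lines, and the differences were 0.28 in A549 (95% interval −0.28 to 0.85, limma adjusted p = 0.607) and −0.33 in H2122 (95% interval −0.91 to 0.25, limma adjusted p = 0.603).

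PDE7A, a rolipram-insensitive enzyme known from T cells, moved in opposite directions in the 2 lines. In A549 it read 7.21, 7.01 and 7.20 with LKB1, 7.63, 7.48 and 7.63 with K78I, and 7.49, 7.56 and 7.45 with pBABE. In H2122 it read 8.76, 8.75 and 8.69 with LKB1, 8.26, 8.12 and 7.98 with K78I, and 8.11 and 8.19 with pBABE. The LKB1 arrays were thus the lowest 3 in A549 and the highest 3 in H2122, without overlap in either. The difference was −0.40 ± 0.09 in A549 (SE, limma adjusted p = 0.00949), a 1.32-fold lower level. It was 0.60 ± 0.09 in H2122 (SE, limma adjusted p = 0.000734), a 1.51-fold higher level. The A549 call was lost without A549 LKB1 replicate 2 (adjusted p = 0.0646).

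PDE7B, the PDE7 form known from the brain, fell in A549. Its arrays there read 4.24, 4.21 and 4.12 with LKB1, 4.89, 6.33 and 5.04 with K78I, and 6.87, 6.61 and 5.34 with pBABE. The LKB1 arrays were close together and lowest, while the controls spread over almost 2 log2 units. The difference was −1.65 ± 0.33 (SE, limma adjusted p = 0.00542), with the LKB1 levels near the lower end of the scale. In H2122 PDE7B read 4.18, 4.48 and 4.39 with LKB1, 4.65, 5.00 and 4.70 with K78I, and 4.64 and 5.52 with pBABE. No LKB1 array reached a control array there, but the difference of −0.58 ± 0.34 did not pass the test (SE, limma adjusted p = 0.403).

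The spread of PDE7B among the A549 controls went with STK11, a relation picked out after its values were seen. On the control arrays with STK11 at 10.54, 10.42 and 10.52 (K78I replicates 1 and 3 and the array labelled pBABE replicate 3) PDE7B read 4.89, 5.04 and 5.34. On those with STK11 at 7.14, 6.88 and 7.38 (the array labelled K78I replicate 2 and pBABE replicates 1 and 2) it read 6.33, 6.87 and 6.61. Without the 2 arrays at odds with their labels, 2 K78I and 2 pBABE arrays remained. PDE7B was then lower with K78I than with pBABE (−1.77, limma adjusted p = 0.0058), as 1 of the 9 genes, where 0.195% of all genes were called. This fit uses the arrays on which the relation was seen, so it is no independent test. PDE7B was called there under 1 of 30 alternatives and not with all arrays (limma adjusted p = 0.999). Of the control arrays with high PDE7B, K78I replicate 2 and pBABE replicate 1 also had low cell cycle genes, and the part of those in the PDE7B values was not tested. In H2122 the K78I and pBABE arrays overlapped, at 4.65 to 5.00 with K78I and at 4.64 and 5.52 with pBABE.

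**Figure D2:**
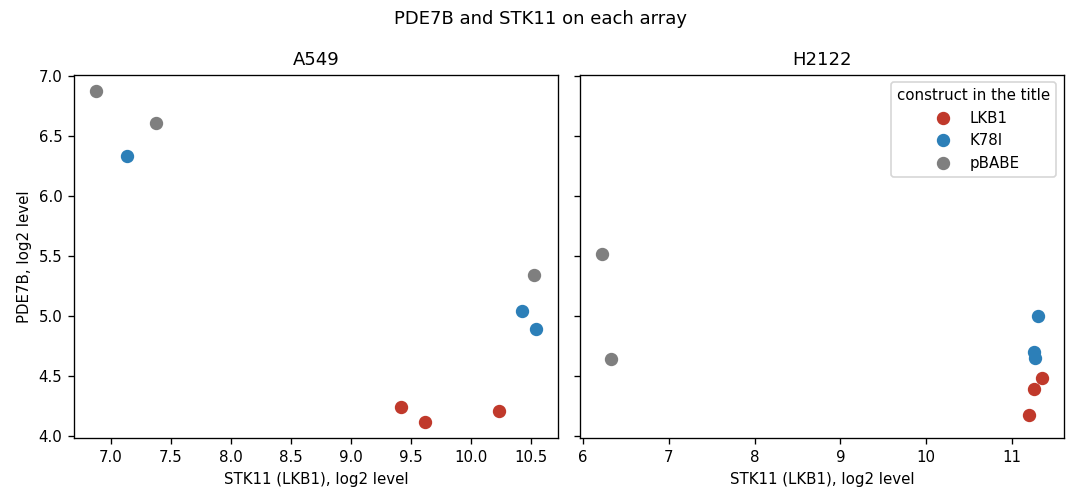
PDE7B level against STK11 level (both log2) on the 9 A549 arrays (left) and 8 H2122 arrays (right), coloured by the construct in the title. In A549 the array labelled K78I with STK11 at 7.14 lies beside 2 pBABE arrays, and the array labelled pBABE with STK11 at 10.52 lies beside 2 K78I arrays.

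PDE8A, a high-affinity enzyme that the inhibitor IBMX does not block, fell in both lines. In A549 it read 9.60, 9.06 and 9.30 with LKB1, 10.12, 10.74 and 10.47 with K78I, and 10.56, 10.10 and 10.13 with pBABE. In H2122 it read 9.05, 9.05 and 9.07 with LKB1, 9.32, 9.58 and 9.72 with K78I, and 9.72 and 9.75 with pBABE. All LKB1 arrays were below all controls in each line. The difference was −1.03 ± 0.15 in A549 (SE, limma adjusted p = 0.000576) and −0.58 ± 0.16 in H2122 (SE, limma adjusted p = 0.0355). The H2122 call was lost under 11 of 31 alternatives, a replicate block among them (adjusted p = 0.0618).

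PDE8B, the PDE8 form known from the adrenal and thyroid, was the 1 member that rose in A549. Its arrays there read 5.75, 4.93 and 5.22 with LKB1, 4.51, 4.21 and 5.08 with K78I, and 4.67, 4.64 and 4.65 with pBABE. The K78I array at 5.08 lay above the LKB1 array at 4.93, so the groups overlapped. The difference of 0.67 ± 0.20 just passed (SE, limma adjusted p = 0.0465) and was lost under 19 of 30 alternatives, with adjusted p of 0.0538 to 0.272 where lost. H2122 arrays read 3.73, 3.79 and 4.03 with LKB1, 4.22, 3.88 and 4.25 with K78I, and 4.17 and 4.68 with pBABE, a difference of −0.42 that did not pass (limma adjusted p = 0.285). PDE8B lies among the dimmest 30% of genes.

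**Figure D3:**
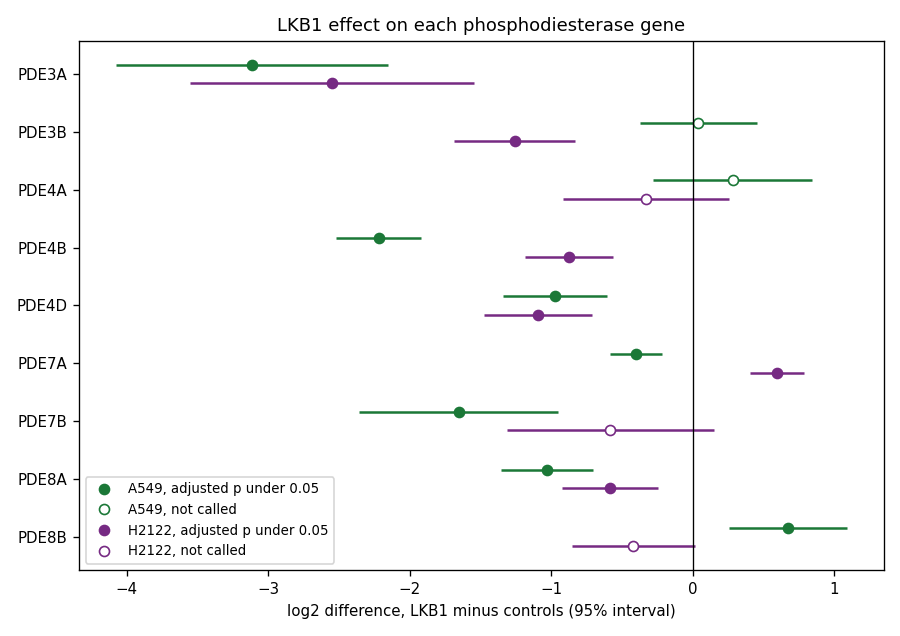
Log2 difference of LKB1 minus controls for each gene in A549 (green) and H2122 (purple), with 95% intervals from limma; filled points passed an adjusted p of 0.05. The differences run from −3.12 for PDE3A in A549 to 0.67 for PDE8B in A549, and PDE7A lies at −0.40 in A549 and 0.60 in H2122.

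The effect of LKB1 was then compared between the lines, as the A549 difference minus the H2122 difference. This comparison uses the same arrays as the differences above. Of the 9 genes 4 were called, 2 in each direction, where 3.6% of all genes were (1.63% more positive in A549 and 1.98% more negative). PDE3B (1.30 ± 0.28, SE, limma adjusted p = 0.0178) and PDE8B (1.09 ± 0.28, adjusted p = 0.0462) had the more positive difference in A549. PDE4B (−1.34 ± 0.20, SE, limma adjusted p = 0.00194) and PDE7A (−0.998 ± 0.125, adjusted p = 0.000533) had the more negative difference in A549. With LKB1 in H2122 the PDE4B levels (mean 4.48) cannot be told from background, nor can those of PDE8B. The PDE4B fall in H2122 may thus be understated, and the part of this in the line difference was not tested. For PDE3A the lines differed by −0.57 (95% interval −1.96 to 0.82) and for PDE4D by 0.12 (95% interval −0.41 to 0.65), and neither was called. PDE7B differed by −1.07 without a call (adjusted p = 0.298), and leaving out the 2 A549 arrays at odds with STK11 gave −1.08 with a call (adjusted p = 0.0196).

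Against each control alone, the direction of each gene that fell or rose was kept. These comparisons share their LKB1 arrays, and in A549 each control group includes an array whose STK11 goes against its label. In A549, 5 of the 9 fell and 0 rose against K78I, where 5.25% of all genes were called (1.69% lower and 3.56% higher). Against pBABE 6 fell and 0 rose, where 5.5% were called (1.72% lower and 3.78% higher). PDE7A was among those 6 at −0.36 (limma adjusted p = 0.0487), a call lost under 19 of 30 alternatives. PDE7B was called against pBABE and not against K78I, at −1.23 against K78I (limma adjusted p = 0.0800) and −2.08 against pBABE (adjusted p = 0.00425). PDE8B was called against neither, at 0.70 and 0.65. In H2122, 3 fell and 1 rose against K78I, where 3.89% of all genes were called (0.908% lower and 2.98% higher). Against pBABE 4 fell and 1 rose, where 5.77% were called (1.6% lower and 4.17% higher). There PDE4D gave −0.74 against K78I (limma adjusted p = 0.0523) and −1.45 against pBABE (adjusted p = 0.00112), and PDE8A was called against neither, at −0.49 and −0.68.

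K78I and pBABE were also compared, which asks whether kinase-dead protein alone came with a difference. With limma 0 of the 9 genes and 0% of all genes were called in either line. At an unadjusted p under 0.05 stood 472 genes in A549, PDE7B among them at −0.85 (adjusted p = 0.999), and 1260 in H2122, PDE4D among them at −0.71 (adjusted p = 0.54). For PDE4B in A549 the difference was 0.08 (95% interval −0.26 to 0.43), and for PDE3A in H2122 it was −0.84 (95% interval −2.08 to 0.40). In A549 the K78I group held the array with STK11 at 7.14 and the pBABE group that with STK11 at 10.52. Neither group was thus uniform in STK11, which limits what this comparison can show there. Without these 2 arrays 0.195% of all genes were called in A549, PDE7B among them, in the fit described above that is no independent test.

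Without active LKB1 the 2 lines differed in most of these genes, as in a large share of the transcriptome. Of the 9, 4 were higher and 3 lower in A549 controls than in H2122 controls, where 40.3% of all genes were called (20.3% higher and 20.1% lower). PDE4B was higher in A549 by 1.83 ± 0.12 (SE, limma adjusted p = 8.5e-09), and its group means ran, from high to low, 7.23 for A549 K78I, 7.15 for A549 pBABE, 5.52 for H2122 pBABE, 5.20 for H2122 K78I, 4.97 for A549 LKB1 and 4.48 for H2122 LKB1. The arrays of the first 2 groups overlapped, as did those of the next 2, and those of H2122 K78I with A549 LKB1. PDE4D was higher by 1.25, PDE7B by 0.91 and PDE8A by 0.71 (limma adjusted p = 5.92e-06, 0.0182 and 0.000415). PDE3B was lower in A549, at −1.19 (limma adjusted p = 3.3e-05), and its LKB1 means of 6.96 in A549 and 6.85 in H2122 lay closer together than its control means of 6.92 and 8.11. PDE7A was lower, at −0.59 (limma adjusted p = 1.09e-05), and PDE4A at −0.60, a call (adjusted p = 0.0467) lost under 18 of 30 alternatives. PDE3A (0.81, adjusted p = 0.118) and PDE8B (0.35, adjusted p = 0.115) did not pass.

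**Figure D4:**
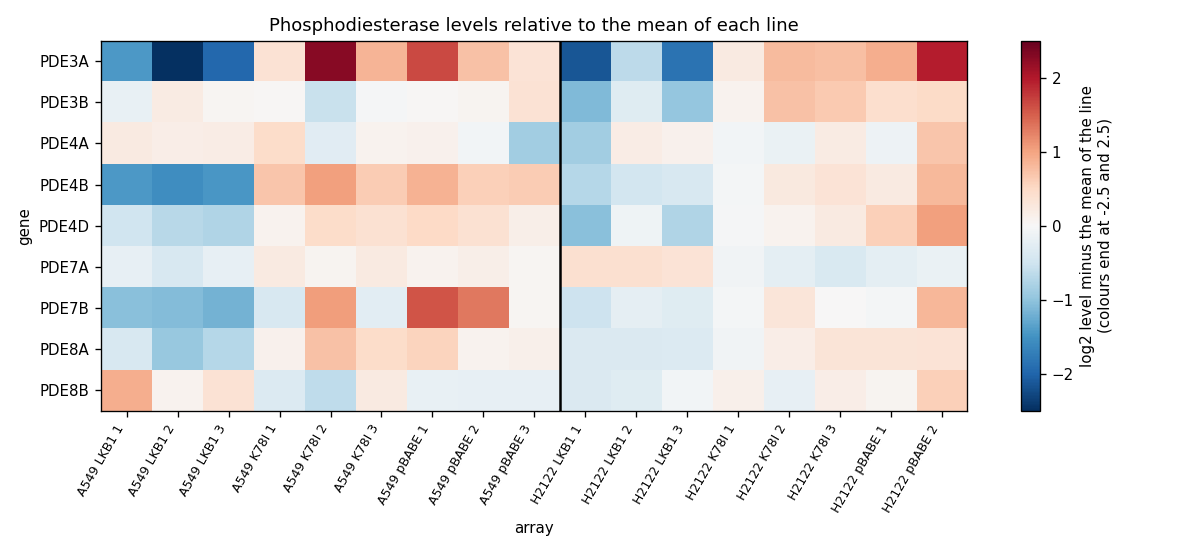
Level of each gene on each array minus the mean of its line (log2; red above, blue below; colours end at −2.5 and 2.5), with A549 arrays left of the line and H2122 arrays right. PDE3A, PDE4B, PDE4D and PDE8A are blue on the LKB1 arrays, except PDE4D near the mean on H2122 LKB1 replicate 2. They are red or near the mean on the controls. PDE7A is pale blue on the A549 and pale red on the H2122 LKB1 arrays.

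Across arrays the genes that fell varied together, as a description in which the points share the construct. In A549 (n = 9 arrays) Pearson's r was 0.99 between PDE3A and PDE8A, 0.97 between PDE3A and PDE4D and 0.97 between PDE4B and PDE4D. PDE3B stood apart there, with r of −0.42 with PDE3A. In H2122 (n = 8 arrays) r was 0.97 between PDE3A and PDE4D and 0.94 between PDE3A and PDE3B, and −0.94 between PDE7A and PDE8A. Of all other genes, the 5 most like PDE4B over the A549 arrays were MID1 (r = 0.994), CPS1 (0.987), PLA2G4A (0.987), SETD7 (0.985) and CTSC (0.976). The 5 most like PDE7A over the H2122 arrays were JAG1 (r = 0.997), CD59 (0.994), CHST11 (0.992), BMP1 (0.99) and ITGA2 (0.99).

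The other phosphodiesterase genes, for enzymes that hydrolyse both nucleotides or cyclic GMP alone and for PDE6 accessory subunits, mostly did not pass. Of 13 measured, 2 rose and 1 fell in A549, where 8.44% of all genes were called. In H2122 1 rose and 1 fell, where 7.28% were called. PDE11A, a dual-specificity enzyme, read 8.23, 9.58 and 9.29 with LKB1 in A549, 6.18, 5.75 and 6.41 with K78I, and 5.89, 5.77 and 6.71 with pBABE. Every A549 LKB1 array was above every control, and the difference was 2.91 ± 0.27 (SE, limma adjusted p = 1.22e-05). In H2122 PDE11A group means lay at 3.98 with LKB1, 3.88 with K78I and 4.09 with pBABE, and the measured effects in the 2 lines differed by 2.91 (limma adjusted p = 0.000839). The H2122 levels lie at the lower end of the scale, where a change may not be detectable. PDE10A, the dual-specificity enzyme of the striatum, fell in both lines, to 7.30 with LKB1 in A549 against 9.17 with K78I and 9.12 with pBABE, and to 5.58 in H2122 against 6.34 with K78I and 7.21 with pBABE. The differences were −1.85 (limma adjusted p = 0.000704) and −1.20 (adjusted p = 0.0195). PDE5A, the cyclic GMP-specific target of sildenafil, rose by 0.84 in A549 (limma adjusted p = 0.0149) and by 0.92 in H2122 (adjusted p = 0.0115). The PDE10A call in H2122 was lost under 5 of 31 alternatives, and the PDE5A calls under 4 in A549 and 3 in H2122.

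**Figure D5:**
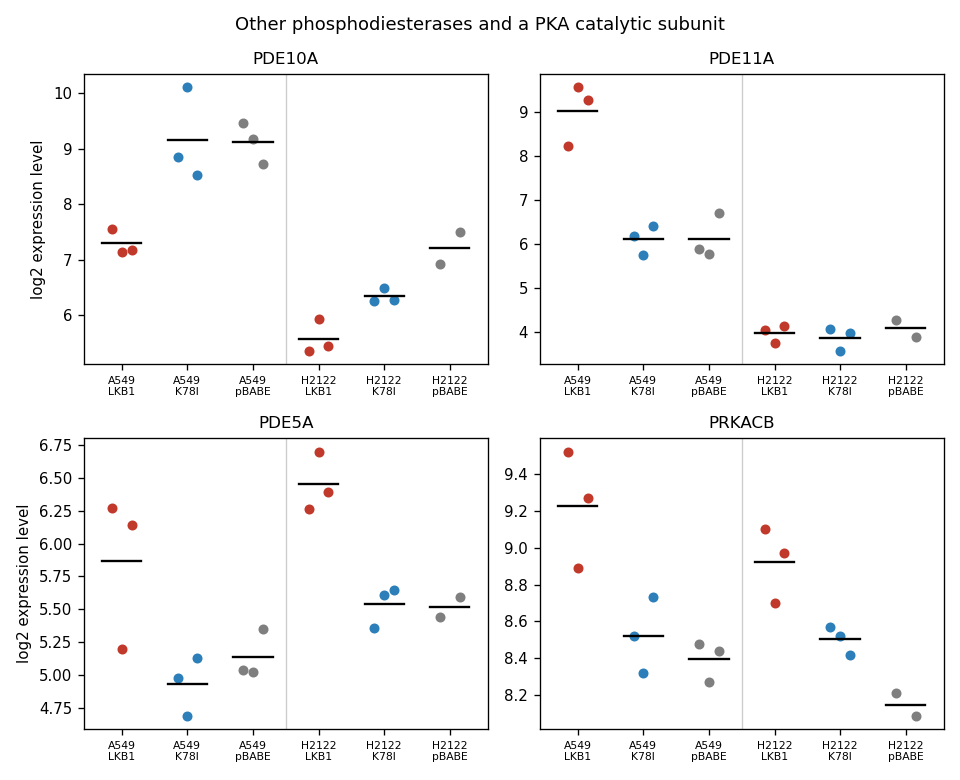
Log2 levels of PDE10A, PDE11A, PDE5A and PRKACB on each array, by line and construct, with a bar at each group mean; each panel has its own axis. PDE11A lies at 8.23 to 9.58 on the A549 LKB1 arrays and at 3.58 to 4.28 on all H2122 arrays.

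Genes that make cyclic AMP and carry its signal were counted by the same test. It called 8.44% of all genes in A549 and 7.28% in H2122. Of 15 adenylyl cyclases and G protein subunits, 2 rose and 1 fell in A549 and 1 fell in H2122. In A549 ADCY7 (0.81) and ADCY1 (0.68) rose and ADCY5 (−1.15) fell, with limma adjusted p of 0.00261, 0.0247 and 0.00135, and in H2122 GNAL, an olfactory and striatal stimulatory subunit, fell by 0.65 (adjusted p = 0.046). The GNAL call was lost under 14 of 31 alternatives and the ADCY1 call under 8. Of 11 genes of protein kinase A and EPAC, 1 rose and 1 fell in A549, and 1 rose in H2122. PRKACB, a catalytic subunit of protein kinase A, was the gene that rose in both lines, by 0.77 in A549 and 0.60 in H2122 (limma adjusted p = 0.00219 and 0.0154). PKIB, a protein kinase A inhibitor, fell in A549 (−0.62, adjusted p = 0.0174). The H2122 call of PRKACB and the PKIB call were each lost under 4 of 31 alternatives.

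Of 16 kinase anchors and phosphodiesterase partners, none passed in A549, where 8.44% of all genes were called. In H2122, where 7.28% were called, AKAP12 rose (2.78, limma adjusted p = 0.014) and AKAP8 fell (−0.38, adjusted p = 0.0458). The AKAP8 call was lost under 19 of 31 alternatives and the AKAP12 call under 4. Of 9 SIK, CRTC and CREB genes, SIK3 fell in A549 (−0.85, limma adjusted p = 0.00756) and none passed in H2122. Of 21 genes known to be induced by cyclic AMP, 7 fell and 0 rose in A549, where 2.95% of all genes were lower and 5.49% higher. The list median was −0.93 against −0.02 over all genes. This list was chosen with earlier results of these data known, so its count is a description and no independent test. INSL4 (−3.71), AVPI1 (−2.30) and RGS2 (−2.25) had the lowest adjusted p there. In H2122, 0 fell and 1 rose, INHBA, the activin beta A subunit (2.71, limma adjusted p = 2.01e-06), where 2.29% of all genes were lower and 4.99% higher. The list median there was −0.49 against −0.04 over all genes. The mean of these 21 genes lay between −0.94 and −0.73 against the line mean on the A549 LKB1 arrays. It was highest on the A549 control arrays with low cell cycle genes, at 1.59 on K78I replicate 2 and 1.04 on pBABE replicate 1. INSL4, AVPI1 and RGS2 kept their A549 calls under all 31 alternatives, among them leaving out the arrays with low cell cycle genes. The count of the list without those arrays is not given here. Of the 35 cell cycle genes, 0 passed in either line.

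The results in H2122 rest in part on 3 arrays whose labels conflict. Of these, STK11 went with the title on pBABE replicate 2 (6.22, source name LKB1) and K78I replicate 3 (11.26, source name pBABE). STK11 cannot tell LKB1 from K78I on the array titled LKB1 replicate 3. With those 3 arrays left out, 5 H2122 arrays remained and 2 of the 9 genes were called against the controls, where 2.35% of all genes were: PDE4B (−0.75, limma adjusted p = 0.0326) and PDE7A (0.61, adjusted p = 0.0192). PDE3A then gave −2.10 (adjusted p = 0.12), PDE3B −1.11 (adjusted p = 0.061), PDE4D −0.90 (adjusted p = 0.0753) and PDE8A −0.54 (adjusted p = 0.262). On the array titled LKB1 replicate 3, with K78I as source name, PDE3A read 6.15 and PDE7A 8.69, beside 5.86 and 7.35, and 8.76 and 8.75, on the other LKB1 arrays. The 3 arrays titled K78I read 8.22 to 8.78 for PDE3A and 7.98 to 8.26 for PDE7A. In A549, leaving out the 2 arrays at odds with STK11 left the 6 falls called, where 9.79% of all genes were, with PDE3A at −2.98 and PDE4B at −2.18 (limma adjusted p = 0.000281 and 9.38e-07), and PDE8B at 0.57 without a call (adjusted p = 0.0943).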

How the data were processed

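Expression was measured on 17 arrays, 1 per sample. The values deposited by the authors are log2 levels; the submitters' processing notes name RMA and Affymetrix Expression Console 1.1. RMA gives all arrays alike distributions (medians 5.62 to 5.73), so a shift of most genes cannot be seen. Whether a genome build was used is not given in the sources.

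Of 33297 probe sets, 19181 had 1 symbol in the platform annotation, 2055 several and 12061 were not listed. The brightest probe set was kept for 895 genes with several, leaving 17958 genes. Groups came from the titles. limma 3.58.1 (R 4.3.3) was fitted over 6 groups (residual degrees of freedom 11, prior 3.8), with Benjamini-Hochberg adjustment over all genes, a threshold of 0.05 and 10 comparisons. The fit was tested on simulated data. The number of arrays limits precision.

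The phosphodiesterases and the other gene lists were chosen with earlier results of these data known. Named genes were STK11, the phosphodiesterases, up to 3 called genes per list and line with the lowest adjusted p, and the 5 genes most correlated with the member of lowest adjusted p in each line. Alternatives were other groupings, left-out arrays, a replicate block, filters, normalizations, probe set rules, priors and weights. Same-numbered arrays' deviations correlated between −0.644 and 0.42, over 0.1 in 10 of 16 pairs, so the numbers were not taken to pair samples. Between replicates the SD of the differences over genes was 0.226 to 0.607, and each array counted as 1 replicate. Figures were drawn with matplotlib 3.10.9.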

Additional observations from a re-analysis of the deposited data

Results flagged for a closer look

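The LKB1 effect (LKB1 minus controls) differed between the lines for 4 of the 9 genes by limma's test of the difference, where 3.6% of all genes were called. For PDE3B the A549 effect minus the H2122 effect was 1.30, with every LKB1 array below every control in H2122 and overlap in A549. The PDE4B value was −1.34, with LKB1 lowest in both lines, but at levels in H2122 that cannot be told from background, so the fall there may be understated. The PDE7A value was −0.998, with LKB1 lowest in A549 and highest in H2122. The PDE8B value was 1.09, from a rise in A549 and an uncalled difference of −0.42 in H2122. PDE4B was called under all 30 alternatives and PDE7A under 29, but PDE3B lost its call under 6 and PDE8B under 18 of 29.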

How the results depend on the processing

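The 90 differences of the 9 genes had 2708 values under the alternatives. Of these 2477 kept sign and side of the threshold, 51 turned sign with no call on either side, 143 lost a call, 36 gained one and 1 reversed. In A549 PDE3A, PDE4B, PDE7B and PDE8A were called against the controls under all 31 alternatives. Some alternatives, such as leaving out an array of the other line, cannot change a difference within a line. Only its spread estimate and adjusted p can move, so the kept signs there were fixed in advance.

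Grouping by source name goes against STK11 on the H2122 arrays titled pBABE replicate 2 and K78I replicate 3. It left 4 of the 9 genes called against controls in A549 (5.8% of all genes) and 0 in H2122 (0.00557%). Against K78I and pBABE it left 2 (3%) and 3 (3.52%) in A549, and 0 (0%) and 0 (0.0111%) in H2122. Between lines it left 1 (0.974%), and PDE3A against K78I in H2122 reversed to 0.00197. Leaving out the 3 arrays with conflicting labels left 2 against controls (2.35% of all genes), 0 against K78I (1.11%) and 0 against pBABE (1.19%) in H2122. Between lines it left 2 (1.16%). Without the 2 A549 arrays at odds with STK11, 1 of the 9 genes was called between K78I and pBABE in A549 (0.195% of all genes). Leaving out each array in turn gave 3 to 6 genes against K78I in A549 (2.34% to 9.05% of all genes). In H2122 it gave 2 to 5 against K78I (1.56% to 5.7%) and 2 to 6 against pBABE (2.57% to 10%). Between lines it gave 2 to 4 (1.73% to 4.84%). With the replicate block 7 were called in A549 (7.91% of all genes) and 5 in H2122 (6.67%), where PDE8A gave −0.59 (limma adjusted p = 0.0618). The fit of each line alone gave no difference between lines, and pooled controls gave no comparison with 1 control.

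Over all genes, the 1515 called in A549 became 3844 with array weights, 875 with A549 fitted alone, and 844 and 715 without LKB1 replicates 1 and 3. The 1308 called in H2122 became 2264 with array weights, 2345 without the 3 arrays with low cell cycle genes, 422 without the 3 with conflicting labels, 1 by source name, and 789, 868 and 755 without LKB1 replicates 1, 2 and 3. The cause of these changes was not tested. Levels near the lower end, as for PDE8B, cannot be told from background.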
